A study of Mus musculus with 6 samples.

Results

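The proteasome genes were followed through 6 mouse liver transcriptomes, 3 labelled wild type and 3 labelled Cdkl3-/-. Members were every gene symbol that begins with Psma, Psmb, Psmc, Psmd, Psme or Psmf followed by a digit, without pseudogene symbols. This gave 45 of the 23021 rows with a symbol that could be used. Psmd1, a scaffold subunit, lies among the chromosome 1 rows, whose symbols do not match their values, and was not analysed here. By role the 45 rows were 8 alpha and 7 beta subunits of the core particle and 3 beta subunits of the immunoproteasome. The regulatory particle gave 6 ATPases, 10 other subunits and 3 assembly chaperones. The remaining rows were 3 genes of the interferon-inducible activator PA28, 3 other activators or inhibitors, and 2 that only share the prefix (Psmc3ip, a recombination factor, and Psme3ip1, a binding partner of Psme3).

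Both groups were C57BL/6 mice, labelled male, 10 months old and on chow, with whole liver sampled. The series speaks of a knockout in the liver and the genotype label gives Cdkl3-/-. The promoter or Cre line behind the knockout is not given in the sources used here. Libraries are labelled as separate samples with no statement that each is 1 mouse, so the p-values speak only of the spread among these samples, which may be technical. In every list of values below the order is replicates 1, 2 and 3.

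The proteasome degrades proteins that carry a ubiquitin chain. Its barrel-shaped core is built from rings of alpha subunits, which form the gate, and rings of beta subunits, of which 3 cut peptides. The regulatory particle caps the core, where it binds and removes ubiquitin and unfolds the substrate with a ring of ATPases. Each subunit takes a fixed number of places in the particle. Under interferon, 3 catalytic beta subunits are replaced by immunoproteasome forms that help to make peptides for MHC class I. In the liver the system disposes of misfolded secretory proteins drawn back from the endoplasmic reticulum and of many metabolic enzymes.

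Several facts of the libraries touch all results. About 20460000 to 48610000 reads were counted on genes per library, and mitochondrial transcripts held 63.2% to 73.9% of all FPKM. Cdkl3 measured 0.124 ± 0.0390 FPKM (SD, n = 3) in the wild-type-labelled libraries and 0.139 ± 0.0600 FPKM (SD, n = 3) in the knockout-labelled ones. Xist measured 253 FPKM on average in the wild-type-labelled libraries and 0.0212 FPKM in the knockout-labelled ones. The Y-linked Ddx3y went from 0.120 to 45.02 FPKM. High Xist with low Ddx3y goes against the male label of the wild-type-labelled libraries. Labelled genotype and the sex that these transcripts mark cannot be told apart in any difference below. Kidney markers summed to 5279 FPKM in knockout replicate 1, nearly all from Kap, against 0.380 to 5.84 FPKM in the other libraries. Over all genes tested below, 33.7% were higher in the knockout-labelled libraries and 20.4% lower. Hepatocyte markers were higher in the knockout-labelled libraries in 5 of 6 tested cases and lower in none, with sums of 352 to 565 FPKM against 1428 to 2368 FPKM. Among these 5, Serpina1a reached 1 FPKM only in knockout-labelled libraries and so had to differ. Stellate cell markers were lower in 4 of 4 cases (78.3 to 131 against 22.8 to 33.2 FPKM) and endothelial markers in 4 of 5 (14.3 to 17.4 against 8.41 to 9.35 FPKM). Macrophage markers (1 higher and 2 lower of 5 tested) summed to 22.3 to 40.3 against 14.7 to 61.2 FPKM. The higher one, Lyz2, also reached 1 FPKM only in knockout-labelled libraries. Lymphocyte markers, with 1 tested and not called, summed to 2.55 to 4.05 against 2.01 to 8.86 FPKM. Of the defining markers, Clec4f, Cd68, Csf1r, Pecam1, Egfl7, Stab1 and Ecm1 were listed at 0 in each wild-type-labelled library. The part of cell composition in the proteasome values was not tested, and in whole liver fewer cells of a type cannot be told apart from less RNA per cell.

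Proteasome transcripts were higher in the knockout-labelled libraries for most subunits of the core and the regulatory particle, and lower for none. All 3 knockout-labelled libraries lay above all 3 wild-type-labelled libraries in 32 of the 45 rows, of which 44 were above 0 in any library. Over all genes this held for 27.7% of the 20529 rows above 0 in any library, which were not matched for level. No proteasome row had all knockout-labelled libraries below the wild-type-labelled ones, a pattern seen in 10.1% of rows. The summed FPKM of the 45 rows was 208, 167 and 173 in the wild-type-labelled libraries and 260.02, 383 and 331 in the knockout-labelled ones. Among the 21 members tested below, knockout replicate 2 was the highest of its group in 16 and knockout replicate 1 the lowest in 17.

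Changes were tested with limma on log2(FPKM + 1), a scale that understates the change of low genes, with a threshold of 0.05 on the p adjusted by Benjamini-Hochberg. Genes needed at least 1 FPKM in at least 3 libraries, which 21 of the 45 members reached. Of these 15 were higher in the knockout-labelled libraries and 0 were lower. Among all 5673 tested genes 33.7% were higher and 20.4% lower. At an unadjusted p under 0.05 limma also gave 0 lower members, since the 95% intervals of the 2 negative differences (Psma8 and Psmd14) include 0. Of the 21, 7 reached 1 FPKM only with the knockout label (Psmb1, Psmb2, Psmc1, Psmd5, Psmd7, Psmd13 and Psme3). Such genes had to differ: over all genes 614 of 631 of them were higher. The count over the 21 is therefore no support by itself. Without a filter 25 of 44 members were higher and 0 lower, against 15.4% and 5.09% of 20529 genes. Their median log2 difference was 0.40, against 0.03 over all genes. Of 10 members at 1 FPKM or more in each wild-type-labelled library 6 were higher, where 21.1% of such genes were higher and 27% lower. The same 15 members were called without knockout replicate 1, the library with the kidney transcripts.

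**Figure D1:**
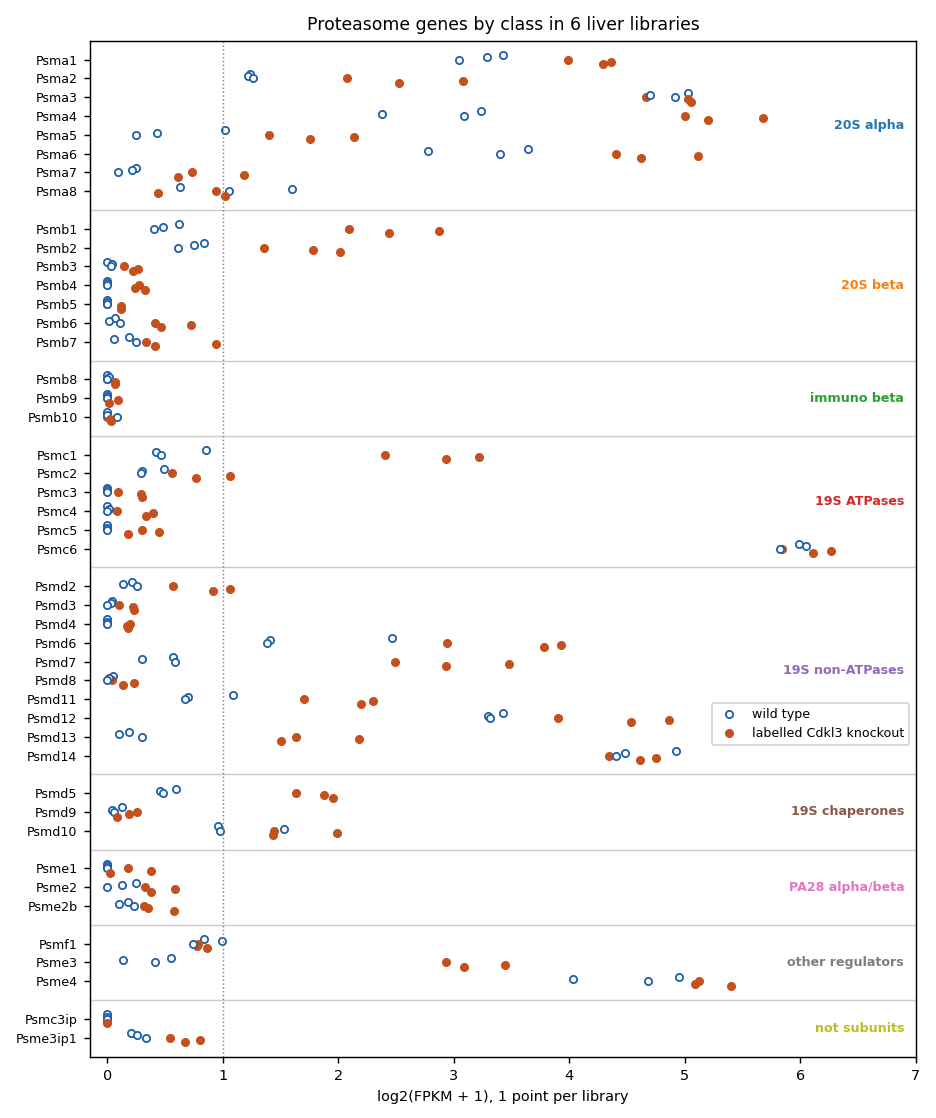
Each row is 1 proteasome gene and each point 1 library, on the log2(FPKM + 1) scale, with classes separated by lines and a dotted line at 1 FPKM. In 32 of the 45 rows the filled points of the 3 knockout-labelled libraries all lie to the right of the open points of the 3 wild-type-labelled libraries, while Psma3, Psmc6 and Psmd14 overlap at high levels.

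Alpha subunits of the core carried most of its signal. Their summed FPKM was 64.3, 47.7 and 56.1 in the wild-type-labelled libraries and 96.9, 147 and 119 in the knockout-labelled ones. Of 7 tested alpha genes 5 rose and none fell, where 33.7% of all tested genes were higher and 20.4% lower. Of the 5 at 1 FPKM or more in each wild-type-labelled library 4 rose, against 21.1% of such genes.

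Psma4 had the largest log2(FPKM + 1) difference of the tested alpha genes. It measured 8.41, 4.18 and 7.49 FPKM in the wild-type-labelled libraries and 31.1, 50.1 and 35.9 FPKM in the knockout-labelled ones, with no overlap. The log2 difference was 2.40 (SE 0.27, adjusted p = 0.00036), and the ratio of the group means was 5.83. Its exons overlap 114 bases of AY074887 on the other strand, and as strand use in the counting is not given in the sources used here, reads there are not assigned with certainty.

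Psma6 measured 11.5, 5.83 and 9.55 FPKM in the wild-type-labelled libraries and 20.2, 33.7 and 23.7 FPKM in the knockout-labelled ones (log2 difference 1.44, SE 0.27, adjusted p = 0.0032), but its value was 0.49 (adjusted p = 0.082) after correction for transcript GC content and length within libraries. Psma1 measured 9.76, 8.75 and 7.27 FPKM against 14.9, 19.5 and 18.6 FPKM (log2 difference 0.96, SE 0.18, adjusted p = 0.0030). Psma2 held to 1.35, 1.33 and 1.40 FPKM in the wild-type-labelled libraries and spread over 3.22, 7.44 and 4.76 FPKM in the knockout-labelled ones (log2 difference 1.32, SE 0.25, adjusted p = 0.0028). All 3 encode ring subunits without cutting activity, and in none did the groups overlap.

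Psma5 measured 1.03, 0.343 and 0.185 FPKM in the wild-type-labelled libraries and 1.64, 3.39 and 2.38 FPKM in the knockout-labelled ones (log2 difference 1.20, SE 0.26, adjusted p = 0.0053), and after the same correction the difference was 0.15 (adjusted p = 0.49). Only 5 reads stood behind the lowest of these values, in wild type replicate 3. A Psma5 pseudogene listed separately may share reads with it, so its level is uncertain.

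Psma3, the alpha gene with the highest level in the wild-type-labelled libraries, did not differ detectably. It measured 31.5, 25.0 and 29.1 FPKM in the wild-type-labelled libraries and 24.4, 31.7 and 32.2 FPKM in the knockout-labelled ones. The groups overlapped, with a log2 difference of 0.04 (SE 0.18, 95% interval -0.38 to 0.45, adjusted p = 0.88). Psma3 and Psma4 sit in the same ring in equal number. Their levels per length stood at 28.6 ± 3.29 and 6.69 ± 2.22 FPKM in the wild-type-labelled libraries and at 29.4 ± 4.39 and 39.0 ± 9.89 FPKM in the knockout-labelled ones (SD, n = 3).

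Psma8, a testis form of an alpha subunit, was 1.21 ± 0.747 FPKM in the wild-type-labelled libraries and 0.764 ± 0.358 FPKM in the knockout-labelled ones (SD, n = 3, adjusted p = 0.37). Psma7, the general form that Psma8 replaces in testis, stayed under the filter. It was listed at 0.190, 0.161 and 0.0637 FPKM against 0.664, 1.28 and 0.524 FPKM, with an adjusted p of 0.035 without the filter.

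Beta subunits were listed far lower than alpha subunits. The 7 genes summed to 1.504, 1.16 and 1.13 FPKM in the wild-type-labelled libraries and to 5.73, 10.8 and 8.66 FPKM in the knockout-labelled ones. Both tested members rose, and both reached 1 FPKM only in knockout-labelled libraries. Psmb1, a structural beta subunit, measured 0.538, 0.398 and 0.319 FPKM in the wild-type-labelled libraries and 3.26, 6.31 and 4.41 FPKM in the knockout-labelled ones (log2 difference 1.96, SE 0.21, adjusted p = 0.00030). Psmb2, another structural subunit, measured 0.784, 0.683 and 0.528 FPKM against 1.56, 2.44 and 3.05 FPKM (log2 difference 0.98, SE 0.19, adjusted p = 0.0035). The groups overlapped in neither gene, but the value of Psmb2 was -0.14 (adjusted p = 0.49) after correction for transcript GC content and length within libraries.

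**Figure D2:**
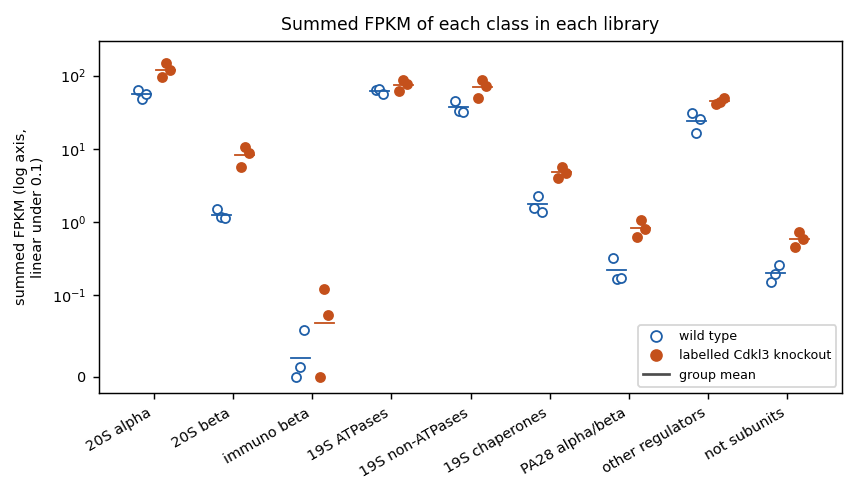
Points give the summed FPKM of the genes in each class for each library on a log axis that turns linear under 0.1, and short lines give the group means. The 3 knockout-labelled points lie above the 3 others in the alpha, beta, regulatory non-ATPase, chaperone, PA28, other regulator and non-subunit classes, while the ATPase sums overlap and the immunoproteasome sums lie at or near 0.

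Psmb5 and the 3 immunoproteasome replacements were close to the limit of counting. Psmb7 had more reads, and Psmb6 had more in the knockout-labelled libraries only. Psmb5, the chymotrypsin-like subunit, was listed at 0 in each wild-type-labelled library and at 0, 0.0844 and 0.0833 FPKM in the knockout-labelled ones, or at most 3 reads. Its replacement Psmb8 was listed at 0, 0.0122 and 0 FPKM and at 0, 0.0449 and 0.0443 FPKM, or at most 6 reads. With so few reads neither gene can be called higher or lower at this depth.

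Psmb6, the caspase-like subunit, measured 0.0445, 0.0110 and 0.0783 FPKM in the wild-type-labelled libraries and 0.327, 0.648 and 0.380 FPKM in the knockout-labelled ones, where 15 to 48 reads stood behind them. It was under the filter, and without the filter it was higher (log2 difference 0.47, adjusted p = 0.021). Its replacement Psmb9 was listed at 0 in each wild-type-labelled library and at 0, 0.0622 and 0.0102 FPKM in the knockout-labelled ones. Psmb9 was thus listed under Psmb6 in every library, but only 3, 1 and 3 reads stood behind Psmb6 in the wild-type-labelled ones. The exons of Psmb9 overlap 212 bases of Tap1 on the other strand. Those of Psmb8 overlap 498 bases of Gm20496 and those of Psmb7 overlap 405 bases of Nek6, so the reads of all 3 are uncertain.

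Psmb7, the trypsin-like subunit, measured 0.138, 0.0421 and 0.186 FPKM in the wild-type-labelled libraries and 0.262, 0.916 and 0.328 FPKM in the knockout-labelled ones. It was under the filter, and without the filter limma did not call it (log2 difference 0.40, adjusted p = 0.16). Its replacement Psmb10 was listed at 0, 0 and 0.0573 FPKM and at 0, 0.0148 and 0.0219 FPKM. The highest Psmb10 value rested on 2 reads.

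Within each library the log2(FPKM + 1) level of a replacement was set against that of its general form. From wild type to knockout this balance moved by -0.43 for Psmb9 and Psmb6 and by -0.41 for Psmb10 and Psmb7. A two-sided exact permutation test gave p = 0.1 for each, and 0.15 after adjustment over 3 pairs. For Psmb8 and Psmb5 the shift was -0.04, with an exact permutation p = 0.3. With 3 against 3 libraries this test cannot go below 0.1, so no pair can pass the threshold. The sizes depend on the scale, since a pseudocount of 0.1 gave -1.64, -1.40 and -0.29 in the same order of pairs and 0.01 gave -1.96, -1.86 and -0.90. Without knockout replicate 2 the shift of Psmb10 and Psmb7 was -0.22. Psmb9 and Psmb10 were listed at or near 0 in every library. The shifts of these pairs therefore mostly restate the levels of Psmb6 and Psmb7 and show no change of the replacement. Without the filter the log2 differences of Psmb6 and Psmb7 were 0.47 and 0.40.

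The PA28 genes, whose product opens the core under interferon, summed to 0.321, 0.167 and 0.175 FPKM in the wild-type-labelled libraries and 0.627, 1.07 and 0.806 FPKM in the knockout-labelled ones. Psme1 was listed at 0 in each wild-type-labelled library and at 0.129, 0.298 and 0.0169 FPKM in the knockout-labelled ones. Psme2 was listed at 0.189, 0.0933 and 0 FPKM against 0.254, 0.502 and 0.297 FPKM. No PA28 or immunoproteasome gene passed the filter, and without it limma called 0 of these 6, with adjusted p from 0.086 (Psme2) to 0.81 (Psmb10).

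The 6 ATPases of the regulatory particle form 1 ring with a single copy of each, yet their listed levels differed widely. Psmc6 measured 62.4, 65.2 and 55.8 FPKM in the wild-type-labelled libraries and 56.3, 75.9 and 68.3 FPKM in the knockout-labelled ones. It was the highest of all proteasome genes in both groups and overlapped between them (log2 difference 0.12, SE 0.18, 95% interval -0.29 to 0.52, adjusted p = 0.59). Psmc1 measured 0.804, 0.341 and 0.379 FPKM in the wild-type-labelled libraries and 4.28, 8.29 and 6.62 FPKM in the knockout-labelled ones. This was a log2 difference of 2.27 (SE 0.24, adjusted p = 0.00026) and a ratio of means of 12.6, with no overlap. Psmc1 passed the filter only through the knockout-labelled libraries and had to differ. Of the other 4, Psmc2 averaged 0.287 FPKM in the wild-type-labelled libraries and 0.752 FPKM in the knockout-labelled ones. It was under the filter, and without the filter limma did not call it (adjusted p = 0.093). Psmc3 and Psmc5 were listed at 0 in each wild-type-labelled library, and Psmc4 in 2 of 3. Exons of Psmc3 overlap 215 bases of Slc39a13 on the other strand. In the knockout-labelled libraries these 3 ranged from 0.0565 to 0.363 FPKM.

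Of the 10 other subunits of the regulatory particle, 6 were tested, 5 rose and none fell. Over all tested genes 33.7% were higher and 20.4% lower. Psmd7 and Psmd13 reached 1 FPKM only in knockout-labelled libraries and had to differ. Psmd11 reached 1 FPKM in only 1 wild-type-labelled library. Of the 3 tested at 1 FPKM or more in each wild-type-labelled library 2 rose, where 21.1% of such genes were higher and 27% lower. Psmd7 had the largest difference. It pairs with the deubiquitinase Psmd14, the subunit that removes ubiquitin from the substrate. Psmd7 measured 0.479, 0.227 and 0.497 FPKM in the wild-type-labelled libraries and 4.62, 10.1 and 6.64 FPKM in the knockout-labelled ones (log2 difference 2.49, SE 0.25, adjusted p = 0.00023, ratio of means 17.8). Its partner Psmd14 measured 29.3, 21.4 and 20.2 FPKM against 19.3, 25.9 and 23.5 FPKM and overlapped between groups (log2 difference -0.04, SE 0.20, 95% interval -0.50 to 0.42, adjusted p = 0.90).

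Psmd6, of the lid, measured 4.52, 1.66 and 1.61 FPKM in the wild-type-labelled libraries and 6.68, 14.2 and 12.7 FPKM in the knockout-labelled ones (log2 difference 1.80, SE 0.36, adjusted p = 0.0043). Psmd11, a lid subunit that contacts the core, measured 1.12, 0.622 and 0.597 FPKM against 2.25, 3.92 and 3.59 FPKM (log2 difference 1.25, SE 0.21, adjusted p = 0.0017). Psmd12, a further lid subunit, measured 9.75, 8.84 and 8.95 FPKM against 14.0, 28.1 and 22.1 FPKM (log2 difference 1.09, SE 0.24, adjusted p = 0.0068), and lost its call after correction for GC content and length (0.38, adjusted p = 0.14). In each of these lid genes all knockout-labelled libraries were above all wild-type-labelled libraries, and knockout replicate 1 was the lowest of its group.

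Psmd13, also of the lid, went from 0.140, 0.0731 and 0.232 FPKM to 2.10, 3.52 and 1.83 FPKM (log2 difference 1.57, SE 0.19, adjusted p = 0.00046). Psmd13 passed the filter only through the knockout-labelled libraries and had to differ. A stretch of 342 bases of its exons overlaps Sirt3 on the other strand, so its level is uncertain. Psmd2, the scaffold of the base, stayed under the filter with 0.158, 0.0968 and 0.194 FPKM against 0.485, 1.09 and 0.890 FPKM. The ubiquitin receptor Psmd4 was listed at 0 in each wild-type-labelled library and at 0.145, 0.126 and 0.133 FPKM in the knockout-labelled ones, from 10 to 14 reads.

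Among the assembly chaperones of the base, Psmd5 measured 0.510, 0.370 and 0.392 FPKM in the wild-type-labelled libraries and 2.11, 2.66 and 2.86 FPKM in the knockout-labelled ones (log2 difference 1.31, SE 0.14, adjusted p = 0.00032). Psmd5 passed the filter only through the knockout-labelled libraries and had to differ. Psmd10, also known as gankyrin, averaged 1.27 ± 0.540 against 2.13 ± 0.720 FPKM (SD, n = 3) and was not called (adjusted p = 0.11). Psmd9 reached at most 0.197 FPKM in any library, and its exons overlap 1849 bases of Gm26745 on the other strand, so its reads are uncertain.

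**Figure D3:**
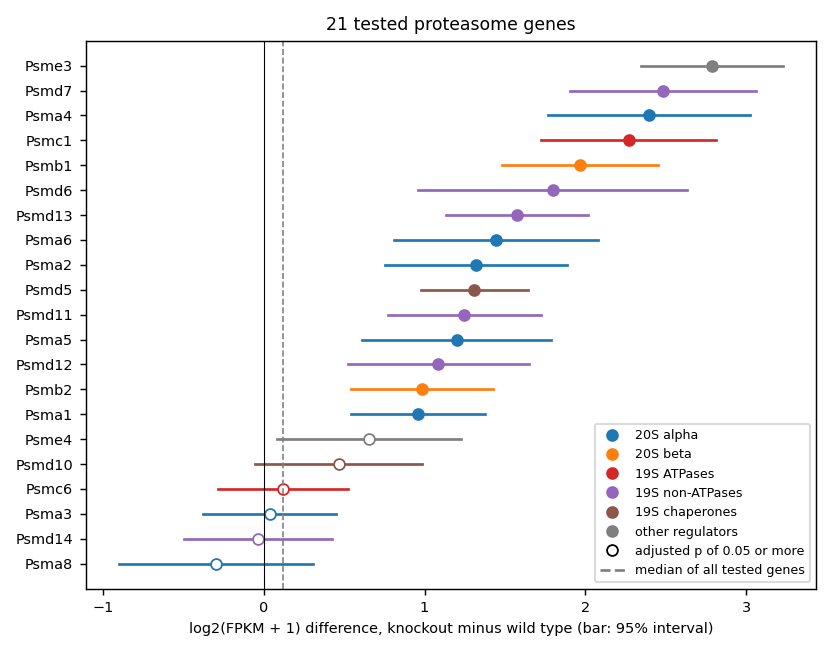
Points give the log2(FPKM + 1) difference, knockout minus wild type, for the 21 tested members with 95% intervals from limma. Filled points passed the threshold, and the dashed line is the median of all tested genes at 0.12. The 15 filled points lie between 0.96 and 2.79, and the 6 open points between -0.30 and 0.65.

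Of the other regulators, Psme3 had the largest difference of all proteasome genes. It encodes a nuclear activator that opens the core without ubiquitin. Psme3 measured 0.461, 0.0977 and 0.331 FPKM in the wild-type-labelled libraries and 6.62, 9.86 and 7.51 FPKM in the knockout-labelled ones. The log2 difference was 2.79 (SE 0.19, adjusted p = 7.2e-05) and the ratio of means 26.95, from 14 to 49 reads against 479 to 1150 reads per library. Psme3 passed the filter only through the knockout-labelled libraries and had to differ, so its adjusted p is no support by itself.

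Psme4, a large activator linked to histone turnover, measured 29.8, 15.3 and 24.6 FPKM in the wild-type-labelled libraries and 33.8, 33.1 and 41.2 FPKM in the knockout-labelled ones. Its groups did not overlap, but the log2 difference of 0.65 (SE 0.25) missed the threshold with an adjusted p of 0.055. It was called without wild type replicate 1 (adjusted p = 0.024). Psmf1, an inhibitor of the core, measured 0.788, 0.990 and 0.668 FPKM against 0.722, 0.707 and 0.819 FPKM, with overlap. The group values were 0.815 ± 0.163 and 0.749 ± 0.0612 FPKM (SD, n = 3).

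The level at which a proteasome gene was listed went with the base composition of its transcript. GC content was taken from the longest protein-coding transcript in GENCODE M21. Across the 43 members with a GC value and a value above 0, Spearman's rho between GC content and mean log2(FPKM + 1) was -0.88 in the wild-type-labelled libraries and -0.82 in the knockout-labelled ones. Across 19717 genes it was -0.36 and -0.21. Members share libraries, and genes are not independent replicates, so these are descriptions. The 10 members under 46% GC all passed the filter, with wild type means of 0.424 to 61.1 FPKM. The 20 members at 50% GC or more had wild type means of 0 to 0.665 FPKM, and 2 of them were tested.

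The relation of differences to composition depended on the filter. Psmc6 (37.0% GC), Psma3 (40.8%) and Psmd14 (43.2%), which overlapped between groups, are among the transcripts with the least GC. Under 42% GC 1 of 3 tested members was higher, where 13.2% of tested genes in that range were higher and 35.1% lower. From 42% to 46% GC 3 of 7 were higher, against 30.1% higher and 18.7% lower. Psmd5, 1 of these 3, passed the filter only through the knockout-labelled libraries and had to differ. All 9 tested from 46% to 50% GC were higher, against 46.1% and 13.0%, but 4 of the 9 (Psmb1, Psmc1, Psmd7 and Psme3) passed the filter only through the knockout-labelled libraries and had to differ, so nothing is read from that count. Over the 21 tested members rho between GC content and the log2 difference was 0.65, and over 5539 tested genes it was 0.37. Without the filter it was -0.30 over 43 members, the opposite sign, and 0.23 over 19717 genes. After a correction for GC content and exon length within libraries, 13 members were higher and 0 lower, and 11 of the 15 first called were among them. Psma5, Psma6, Psmb2 and Psmd12 were lost, and Psmc6 (log2 difference 0.64, adjusted p = 0.025) and Psme4 (0.63, adjusted p = 0.043) were gained. The median log2 difference over the 21 tested members was 1.25 before the correction, with 0.12 over all tested genes, and 0.69 after it, with -0.04 over all. The 21 include the 7 members that passed the filter only through the knockout-labelled libraries, of which only Psmb2 lost its call. The counts and medians over the 21 are therefore no support by themselves. The part of base composition in the listed levels was not tested further.

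**Figure D4:**
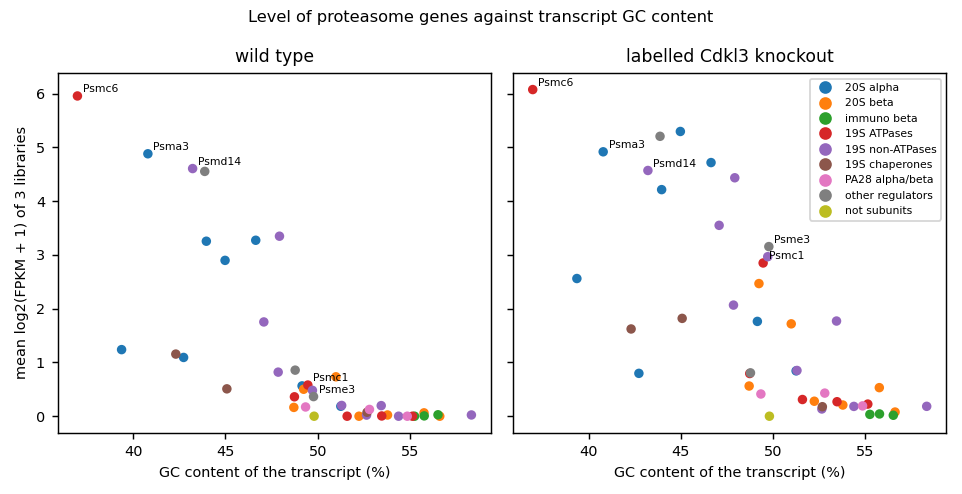
Each point is 1 of the 44 members with a GC value, with transcript GC content in percent on the horizontal axis and the mean log2(FPKM + 1) of 3 libraries on the vertical axis, for the 2 groups side by side. Members at 50% GC or more lie near 0 in the wild-type-labelled libraries, and Psmc1 and Psme3, both just under 50%, are higher in the knockout-labelled libraries, while Psmc6, Psma3 and Psmd14 hold their places.

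Many proteasome genes answer to the transcription factors Nfe2l1 and Nfe2l2, which bind antioxidant response elements. The core of that element, TGACNNNGC, was searched on both strands of the 250 bases before each start in RefSeq (GRCm38.p6), and 38 of the 45 members had such a window. It was found in 5 of these 38 genes, or in 11.9% of 42 member windows, against 10.2% of all 32851 windows of this length. The 5 matches, each as read on the gene's strand, were TGACGTCGC in Psmb5, TGACGGAGC in Psmb6, TGACCCCGC in Psmd9, GCTAAGTCA in Psmc6 and GCTGTGTCA in Psmd12. The last 2 are matches on the opposite strand. Psmd12 and Psmc6 are the 2 tested members with a match, of which Psmd12 rose and Psmc6 overlapped between groups. After the correction for GC content and length the calls swapped, with Psmd12 at 0.38 (adjusted p = 0.14) and Psmc6 at 0.64 (adjusted p = 0.025). Psme3, with the largest difference, had no match. The windows of these 3 genes are shown 5′ to 3′ on the gene's strand with the match in capitals, at chr11:107479278-107479527, chr14:45329574-45329823 and chr11:101315963-101316212, all on the plus strand of GRCm38.p6.
Psmd12: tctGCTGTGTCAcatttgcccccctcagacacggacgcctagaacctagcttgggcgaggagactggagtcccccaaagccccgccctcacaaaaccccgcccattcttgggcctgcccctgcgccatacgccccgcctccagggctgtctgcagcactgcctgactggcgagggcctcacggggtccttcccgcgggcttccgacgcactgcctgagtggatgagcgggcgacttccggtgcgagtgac
Psmc6: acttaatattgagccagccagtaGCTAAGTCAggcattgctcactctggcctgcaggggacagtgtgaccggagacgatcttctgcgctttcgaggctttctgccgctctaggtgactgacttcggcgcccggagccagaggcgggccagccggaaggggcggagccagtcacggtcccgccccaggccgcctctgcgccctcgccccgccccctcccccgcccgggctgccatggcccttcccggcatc
Psme3: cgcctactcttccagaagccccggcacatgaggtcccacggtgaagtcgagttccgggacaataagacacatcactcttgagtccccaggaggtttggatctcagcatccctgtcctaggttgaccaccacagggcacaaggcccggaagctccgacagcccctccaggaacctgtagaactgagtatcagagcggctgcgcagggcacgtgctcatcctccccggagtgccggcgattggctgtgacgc

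These windows are rich in GC, at 66.8%, 68.0% and 60.8%. A CCAAT box (CCAAT) was in 35.7% of member windows and in 33.9% of all windows. The interferon-stimulated element (GAAA, any 2 bases, GAAA) was in 3 member windows (7.14%, against 2.98% of all), those of Psmb3, Psmd4 and Psmd9. The GAS element TTCNNNGAA, which STAT factors bind, was in 1 member window (2.38%, against 7.02%), that of the immunoproteasome gene Psmb8. A match is a run of letters and not evidence of binding.

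Of 29 listed partners of the proteasome in the ubiquitin system 17 were tested, with 5 higher and 3 lower in the knockout-labelled libraries and a median log2 difference of 0.21. These counts are near the background of all tested genes (33.7% higher, 20.4% lower, median 0.12). Ufd1, an adaptor that brings ubiquitinated proteins to the segregase Vcp, rose from 0.669 ± 0.363 to 3.24 ± 1.15 FPKM (SD, n = 3, adjusted p = 0.0030). Rps27a, a ubiquitin gene fused to a ribosomal protein, rose from 2.11 ± 0.103 to 9.45 ± 5.23 FPKM (adjusted p = 0.0030), and Txnl1, a redox protein of the regulatory particle, from 18.8 ± 4.13 to 35.1 ± 5.37 FPKM (adjusted p = 0.0084). Nfe2l2 fell from 40.1, 49.6 and 56.5 FPKM to 28.2, 19.4 and 17.6 FPKM (log2 difference -1.14, SE 0.22, adjusted p = 0.0035). Nfe2l1, chosen after its values were seen, was under the filter at 0.0510, 0.0416 and 0.00898 FPKM against 0.727, 1.12 and 0.818 FPKM.

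Genes of MHC class I presentation, which use the peptides the proteasome makes, had 10 of 13 rows tested, with 5 higher and 0 lower and a median log2 difference of 0.52, beside the same 33.7%, 20.4% and 0.12 over all tested genes. Tapbp, the tapasin that loads peptides, rose from 0.296 ± 0.159 to 2.80 ± 1.14 FPKM (SD, n = 3, adjusted p = 0.0013) and the chaperone Calr from 1.05 ± 0.635 to 16.7 ± 9.93 FPKM (adjusted p = 0.0016). The class I gene H2-Q4 rose from 0.193 ± 0.0725 to 1.95 ± 0.982 FPKM (adjusted p = 0.0021), and its close copies may share reads. Nlrc5, the activator of class I genes, rose from 0.707 ± 0.469 to 1.91 ± 0.265 FPKM (adjusted p = 0.011). Of the 5, Tapbp and H2-Q4 reached 1 FPKM only in knockout-labelled libraries and had to differ. B2m, chosen after its values were seen, measured 783 ± 184 and 920 ± 183 FPKM (adjusted p = 0.44). The peptide transporter genes Tap1 and Tap2, neighbours of Psmb8 and Psmb9 and also chosen after their values were seen, reached at most 0.512 and 0.0108 FPKM. Irf1, likewise chosen, was listed at 0 in all 6.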

How the data were processed

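RNA-seq of 6 whole-liver samples was deposited as 1 table per library per the file headers in FPKM, which scales fragments by transcript length and library size. Per the submitters' processing notes, HISAT2 and GRCm39 were used; how reads were assigned to genes is not given in the sources used here. In 1 table the header code differs from the sample's title, and the label was used. Symbols served as names. The first 1787 rows, the chromosome 1 block, and 119 further rows without a symbol were left out. FPKM times GENCODE M21 (GRCm38) exon length is a whole multiple of 1 read in each library. Of the member values up to 40 reads, 96 of 96 were whole to within 0.15 read, and 98.9% of 43486 values over all genes. The same steps gave the depth, with 0.0206 to 0.0489 FPKM for 1 read per kilobase, which limits members under about 0.1 FPKM.

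The fit used limma 3.58.1 (R 4.3.3) on log2(FPKM + 1), with genotype alone, trend and robust moderation. It held the 5673 genes that reached 1 FPKM in 3 or more libraries. Tests on simulated data of this knockout contrast (5673 genes) recovered 65% of 100 genes changed by 1 and 94% of 100 changed by 2 on the log2 scale, with 5 false calls. Only these genes were changed there, with independent noise. In the data 33.7% of genes were called higher and 20.4% lower, so these rates may not carry over. Ratios of means are on the FPKM scale. Values in every library are given for called members, the 3 catalytic pairs and the 5 members with the highest mean. From the partner and presentation lists the 4 genes with the smallest adjusted p are named. The other settings were pseudocounts, filters, thresholds, moderation, a replicate block, scalings, GC and length correction, and leaving out each library. Members and lists were chosen with earlier results of these data known. Python 3.11.15 served for summaries (pandas 2.3.3), exact tests (scipy 1.17.1) and plots (matplotlib 3.10.9).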

Additional observations from a re-analysis of the deposited data

How the results depend on the processing

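The 15 members called higher were called again in each of the 17 other settings except 2. At 10 FPKM or more in 3 libraries 8 members were tested and 4 were higher, and removal of the trend on GC content and length kept 11. Leaving out each library in turn gave 15 to 16 higher members and 0 lower. Without a filter 25 members were higher, and quantile normalization gave 1 lower member, Psma8 (adjusted p = 0.047).

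Over all genes, 3171 were higher without a filter, and 468 were higher and 559 lower at 10 FPKM or more. The lower genes numbered 656 at an adjusted p under 0.01, 1891 after median centring (with 1443 higher) and 1761 after quantile normalization (with 1427 higher). Median centring lowered each log2 difference by 0.28. After removal of the trend on GC content and length 1394 were higher and 1484 lower.

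No value whose sign turned was called there. This was so for Psma3 to -0.25 and for Psmc6 to -0.16 after median centring, and for Psmb2 to -0.14 after the trend removal. Leaving out each library in turn gave Psma3 values of -0.052 to 0.16 (negative without wild type replicate 2 or knockout replicate 2 or 3). For Psmd14 it gave -0.13 to 0.12 (positive without knockout replicate 1 or wild type replicate 1). Psmd10 was called without wild type replicate 2 (adjusted p = 0.048), and Psme4 after quantile normalization (0.040). H2-Q4 lost its call after the trend removal, and Nlrc5 there, at 0.01 and after quantile normalization. The cause was not tested in these cases.

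Sample titles number the libraries of both groups alike but name nothing they share. Correlations of same-numbered deviations from the group mean were -0.05, -0.10 and 0.18, so the numbers were not taken as pairs. With the replicate block 15 members were higher, and over all genes 1740 were higher and 1031 lower.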

Other observations

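The row of a Psma5 pseudogene, Psma5-ps, which the choice of members left out, was listed at 0.117, 0.108 and 0 FPKM in the wild-type-labelled libraries and at 1.88, 3.66 and 2.79 FPKM in the knockout-labelled ones, above Psma5 itself in each knockout-labelled library. Of the 2 rows that share the prefix without being subunits, Psme3ip1 went from 0.155, 0.196 and 0.259 FPKM to 0.454, 0.738 and 0.596 FPKM, and Psmc3ip was listed at 0 in all 6 libraries.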
